A study of Mus musculus with 5 samples.

Results

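Glycolysis genes and genes of the response to low oxygen were followed in 5 cell lines derived from NIH/3T3 cells, which are immortal fibroblasts from mouse embryos. The 35 members were chosen by gene symbol from the 14454 symbols of the RPKM tables. They comprise 17 enzymes of the path from glucose to lactate, 3 transporters of glucose and lactate, 4 kinases that act at its control points, the genes of 2 HIF alpha factors and 9 other targets of HIF. Of these, 34 were found under the listed symbol, and Pkm2 was found as Pkm, of which it is a RefSeq synonym. RPKM is a read count scaled by transcript length and by library size, so levels of different genes can be set side by side.

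Every line carried human histone H2A fused to EGFP, integrated in the cells, and grew in DMEM with 10% fetal calf serum and 10 µg/ml gentamicin. In the wt line (n = 1) the histone was wild type, and in the T120D lines numbered 3, 6, 15 and 18 (n = 4) the threonine at residue 120 was replaced by aspartate. The labels give no oxygen level, no promoter for the transgene, and no statement that the numbered lines are separate clones. For each member the question was whether the wt line lay farther away than the spread between the T120D lines.

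Glycolysis splits glucose into pyruvate in the cytosol. Lactate dehydrogenase reduces pyruvate to lactate, which leaves the cell through monocarboxylate transporters, while pyruvate dehydrogenase instead commits pyruvate to the mitochondria and is switched off by the PDK kinases. HIF is a transcription factor made of an oxygen-regulated alpha subunit and the stable partner ARNT. With oxygen, prolyl hydroxylases of the EGLN family mark HIF alpha for destruction, and without it HIF raises many glycolytic genes together with genes for vessel growth, mitophagy and pH control. HIF1A is regulated mainly at the protein level, and no protein was measured here.

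The 5 tables were alike in size, with 158614 to 160825 summed RPKM and an estimated 2525000 to 2725000 reads a line, a depth inferred from the steps between low values, on which all read numbers below rest. For a gene 2000 bases long, 1 RPKM is 5.05 to 5.45 such reads. All 10 listed fibroblast markers reached 1 RPKM. Their summed level was 2541 to 2900 RPKM in the T120D lines and 3257 RPKM in wt. By the test described below 7 of the 10 differed, 6 of them lower in T120D, where 13.1% of all tested genes differed and 5.45% were lower. Of 6 markers listed for each other type, 3 had values for epithelial, endothelial, macrophage and skeletal muscle cells and 5 for neural cells. Among those with values, the highest single value was 0.476 RPKM for epithelial and 0.799 for skeletal muscle markers. For endothelial markers it was 0.471 RPKM, with Pecam1 and Tek at 0 in all 5 lines. Macrophage markers summed to 2.88 to 6.55 RPKM in T120D and 3.17 in wt, with Csf1r at most at 0.191 RPKM. Cd14 was at 2.51 to 5.32 RPKM in T120D and 1.71 in wt. Cd68 went the other way, at 0 to 1.13 RPKM in T120D and 1.46 in wt. Neural markers summed to 2.88 to 4.69 RPKM in T120D and 4.11 in wt. Map2 was at 0.835 to 3.26 RPKM in T120D and 3.83 in wt, and Gap43 at 0.608 to 2.04 RPKM and 0.282. The part of fibroblast identity or of other cells in the results below was not tested. In such bulk RNA, fewer cells of a type and less RNA per cell cannot be told apart.

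Of the 16 tested glycolytic enzymes 2 passed the test and 14 did not, a share close to the 13.1% of all tested genes that passed. Hk2, one of the hexokinases that trap glucose in the cell, was 1.70-fold higher in T120D. Eno2, the gene of a less abundant enolase, was 2.66-fold lower, Pdk1 1.83-fold lower, Hif1a 1.68-fold lower and Bnip3, a mitophagy receptor gene, 1.61-fold lower. Of the 29 members with a mean of at least 1 RPKM, 5 passed the test, 1 of them higher and 4 lower in T120D. Over all 10052 tested genes 13.1% passed, 7.65% higher and 5.45% lower, so the members' share is close to that of all genes. Whether the direction or the place of the called members differs from that of other genes was not tested. Of 11 alternative settings of the fit, Hk2, Eno2 and Hif1a kept the call in all, Pdk1 in 9 and Bnip3 in 8. For 22 of the 29 members no T120D line crossed to the other side of wt, which held for 63.4% of all tested genes. The test was limma on log2(RPKM + 1) with Benjamini-Hochberg adjustment over all tested genes, at an adjusted p under 0.05. With 1 wt line its spread comes from the T120D lines alone, and the smallest one-sided p that an exact permutation test of such a design allows is 0.2.

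**Figure D1:**
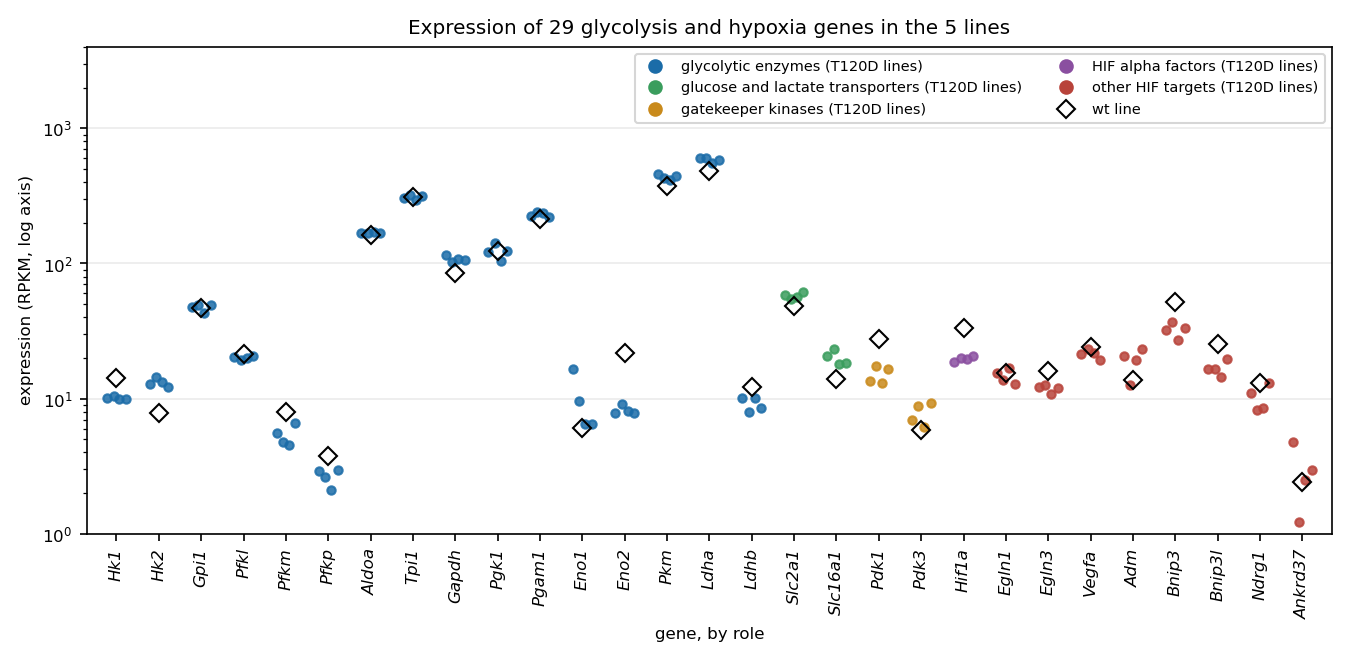
Expression in RPKM (log axis) of the 29 tested members, ordered by role, with 1 filled point for each of the T120D lines 3, 6, 15 and 18 from left to right and an open diamond for the wt line. Ldha and Pkm lie at the top and Ankrd37 and Pfkp at the bottom; for Hk2 the diamond lies below every point, and for Eno2, Pdk1, Hif1a and Bnip3 above every point.

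The 250 bases before the first RefSeq start site of the 5 called genes are shown because HIF binds the core sequence ACGTG or GCGTG. Capitals mark every such core on either strand, so that CACGT and CACGC are the same cores read from the other strand, and CACGTG holds ACGTG on both strands. Sequences are from the RefSeq promoters of GRCm38.p6, a later build than the mm9 of the expression tables, and run 5′ to 3′ on the gene's strand. They lie at chr6:82774455-82774704 (Hk2, minus strand), chr6:124769674-124769923 (Eno2, minus), chr2:71872974-71873223 (Pdk1, plus), chr12:73907617-73907866 (Hif1a, plus) and chr7:138909507-138909756 (Bnip3, minus).
Hk2: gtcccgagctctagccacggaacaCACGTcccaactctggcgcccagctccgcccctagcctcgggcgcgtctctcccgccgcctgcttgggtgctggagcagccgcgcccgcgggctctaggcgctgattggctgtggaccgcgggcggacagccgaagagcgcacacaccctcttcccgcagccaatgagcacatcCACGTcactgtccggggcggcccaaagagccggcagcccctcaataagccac
Eno2: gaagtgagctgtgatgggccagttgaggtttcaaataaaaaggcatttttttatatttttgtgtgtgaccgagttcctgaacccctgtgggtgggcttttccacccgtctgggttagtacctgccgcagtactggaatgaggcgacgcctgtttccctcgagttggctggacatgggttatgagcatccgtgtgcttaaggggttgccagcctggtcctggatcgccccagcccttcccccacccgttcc
Pdk1: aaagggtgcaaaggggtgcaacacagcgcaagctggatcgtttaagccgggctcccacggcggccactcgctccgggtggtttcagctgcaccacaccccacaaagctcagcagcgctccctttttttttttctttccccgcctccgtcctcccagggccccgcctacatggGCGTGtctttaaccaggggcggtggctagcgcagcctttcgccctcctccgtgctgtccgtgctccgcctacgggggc
Hif1a: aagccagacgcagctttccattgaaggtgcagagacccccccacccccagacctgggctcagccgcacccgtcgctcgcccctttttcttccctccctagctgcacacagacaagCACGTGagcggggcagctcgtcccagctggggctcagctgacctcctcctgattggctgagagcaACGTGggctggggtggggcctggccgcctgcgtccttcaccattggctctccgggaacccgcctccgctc
Bnip3: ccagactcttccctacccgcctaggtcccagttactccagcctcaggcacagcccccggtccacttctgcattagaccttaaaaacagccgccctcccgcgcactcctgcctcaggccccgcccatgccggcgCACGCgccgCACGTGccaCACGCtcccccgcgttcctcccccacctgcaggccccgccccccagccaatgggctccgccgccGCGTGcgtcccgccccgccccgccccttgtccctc

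Hk2 and Hif1a hold ACGTG, Pdk1 holds GCGTG, Bnip3 holds both and Eno2 holds neither in this window. The cores are thus found before the start of the 1 higher gene and of 3 of the 4 lower ones. The table gave promoters for 32 of the members, 47 start sites in all. ACGTG occurred in 23 of the 47 (48.9%), against 16.6% of all 32851 promoters and 22.6% of the 9695 promoters of tested genes. GCGTG occurred in 24 (51.1%), against 28.2% and 47.1%. Either core occurred in 21 of 28 promoters of glycolytic enzymes (75%) and in 7 of 8 of the other HIF targets (87.5%), against 58.5% of the promoters of tested genes. CACGTG, which overlaps ACGTG, occurred in 7 of the 47 (14.9%) and in 8.51% of promoters of tested genes. A match is a description of the letters and not evidence of binding, and members were in part chosen as HIF targets.

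Among the enzymes, the preparatory steps come first. At hexokinase, the first step, 1 of the 2 isozyme genes passed the test. Hk2 was at 12.8, 14.5, 13.3 and 12.3 RPKM in T120D lines 3, 6, 15 and 18 and at 7.79 RPKM in wt. All 4 T120D lines lay above wt, as did those of 31.1% of tested genes, with a log2 difference of 0.69 (SE 0.15, 95% confidence interval 0.35 to 1.04; limma adjusted p = 0.0190). Hk1, the more widely expressed hexokinase gene, was at 10.2, 10.5, 9.87 and 9.90 RPKM against 14.2 RPKM in wt. Here all T120D lines lay below wt, as for 32.3% of tested genes, but the difference of -0.45 was not called (limma adjusted p = 0.0717), and among the alternatives was called only with low genes kept in the fit (limma adjusted p = 0.0436). The sum of both genes was 23.3 ± 1.20 RPKM (SD, n = 4) over the T120D lines and 22 RPKM in wt. Hk2 made up 56.6 ± 1.32% (SD, n = 4) of that sum in T120D and 35.4% in wt, so the summed level was alike while Hk2 rather than Hk1 held the larger share in each T120D line.

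Gpi1, which encodes glucose-6-phosphate isomerase, was at 47.3 ± 2.97 RPKM (SD, n = 4) over the T120D lines and 47.1 RPKM in wt, with a log2 difference of 0.00 (95% confidence interval -0.26 to 0.27). Phosphofructokinase is the committed step and is built from 3 subunits. Pfkl, the liver-type subunit gene, was at 20.3, 19.3, 20.1 and 20.7 RPKM against 21.3 RPKM in wt. Pfkm, the muscle type, was at 5.59, 4.77, 4.51 and 6.64 RPKM against 7.91, and Pfkp, the platelet type, at 2.89, 2.62, 2.09 and 2.95 RPKM against 3.79. The T120D lines lay below wt for all 3 subunits, but none was called by limma (log2 differences of -0.08, -0.49 and -0.40, adjusted p = 0.716, 0.172 and 0.292). For 32.3% of all tested genes every T120D line lay below wt. Pfkl held 71.6 ± 2.92% (SD, n = 4) of the summed subunit RPKM in T120D and 64.6% in wt.

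**Figure D2:**
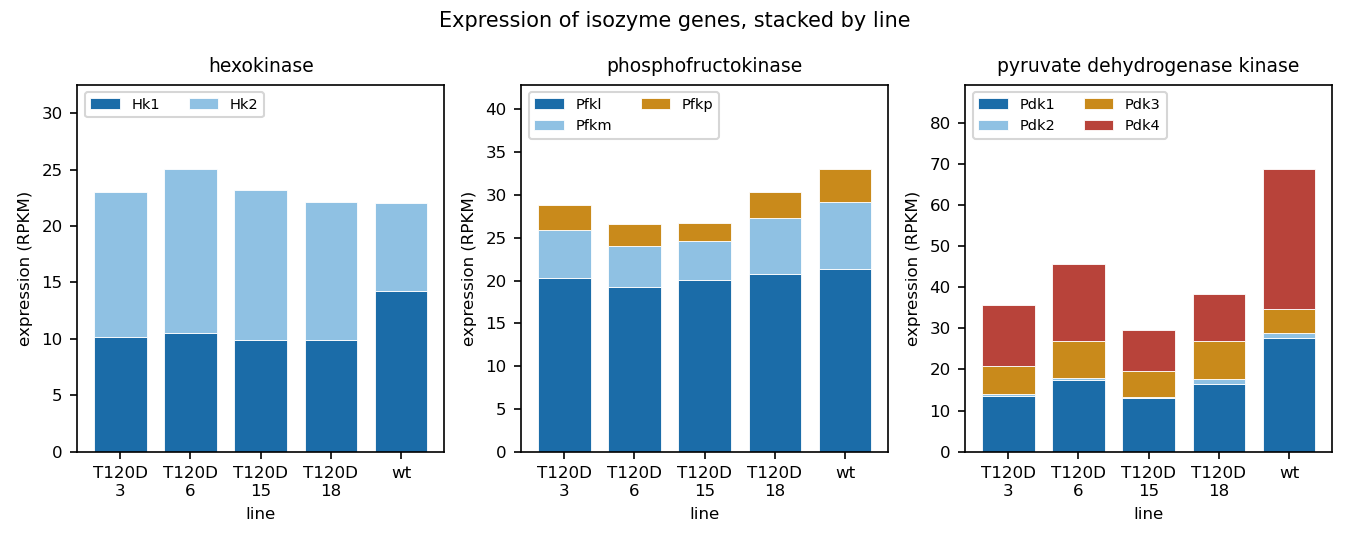
Expression in RPKM of the isozyme genes of hexokinase (left), phosphofructokinase (middle) and pyruvate dehydrogenase kinase (right), stacked for each line. The hexokinase bars are of similar height, 22 to 25.02 RPKM, with the Hk2 part larger in each T120D line than in wt, while the PDK bar of the wt line is the tallest at 68.7 RPKM.

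Aldolase, which splits the 6-carbon sugar, came from Aldoa. This gene was at 169.5, 166.8, 170.9 and 169.0 RPKM in the T120D lines and 163.2 RPKM in wt (log2 difference 0.05, 95% confidence interval -0.13 to 0.23). Its coefficient of variation over the T120D lines, 1.02%, was the smallest among the members. Aldoc, the brain-type aldolase gene, was listed at 0 in 4 of the 5 lines and at 0.221 RPKM in T120D line 15, at most 1.64 reads. Tpi1, the triose isomerase gene, was at 309 ± 12.1 RPKM (SD, n = 4) over the T120D lines and 311 RPKM in wt. Aldoart1 and Aldoart2, retrogene copies of aldolase, were listed at 47.4 to 53.8 and 24.7 to 29.5 RPKM. Of the 50-base stretches of the longest Aldoa transcript, 6.27% also occur in Aldoart1, and reads may be divided between it and Aldoa. None was found in Aldoart2. With the copies added, the aldolase difference was 0.04 on the log2 scale.

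In the payoff phase, from glyceraldehyde phosphate to lactate, none of the tested members other than Eno2 passed the test. Gapdh was at 115.6, 102.5, 107.3 and 106.9 RPKM against 85.4 RPKM in wt, a 1.27-fold difference just outside the threshold (log2 difference 0.33, SE 0.10, limma adjusted p = 0.0567). Its adjusted p was 0.0456 at a mean of at least 5 RPKM, 0.0473 under median scaling and 0.0393 without line 6. Ldha, the main lactate dehydrogenase gene of these cells, was at 599.6, 603.9, 556.0 and 584.1 RPKM against 486.3 RPKM (log2 difference 0.27, SE 0.08, limma adjusted p = 0.0533). It was called by limma in 4 of 11 alternatives, with adjusted p of 0.0371 at a mean of at least 5 RPKM, 0.0499 with a pseudocount of 0.1 RPKM, 0.0499 under quantile normalization and 0.0495 without line 15. For both genes all T120D lines lay above wt, so their calls depend on small changes of the analysis while their direction held in each.

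Pkm, which encodes pyruvate kinase, was at 437 ± 18.9 RPKM (SD, n = 4) against 377 RPKM in wt (log2 difference 0.21, limma adjusted p = 0.127). The table holds 1 value for the gene, so the isoforms PKM1 and PKM2 cannot be told apart. Pgk1, the phosphoglycerate kinase gene, was at 122.1, 140.8, 104.3 and 123.3 RPKM against 124.6, with wt inside the range of the T120D lines. Pgam1, the mutase of the next step, was at 230 ± 10.1 RPKM against 213 (log2 difference 0.11, 95% confidence interval -0.09 to 0.31). Ldhb, the gene of the other lactate dehydrogenase subunit, was at 10.1, 8.01, 10.2 and 8.53 RPKM against 12.2 (log2 difference -0.38, limma adjusted p = 0.199). Ldha made up 98.4 ± 0.219% (SD, n = 4) of the summed lactate dehydrogenase RPKM in T120D and 97.5% in wt.

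Enolase, the last step before pyruvate kinase, needs care because the symbol Eno1 did not hold most of the signal. Eno1 was listed at 16.5, 9.68, 6.48 and 6.51 RPKM in T120D lines 3, 6, 15 and 18 and at 6.02 RPKM in wt, while Gm5506 was listed at 825.4, 856.0, 825.4, 831.1 and 743.0 RPKM in the same order. Gm5506 is a RefSeq synonym of Eno1b, a near-identical copy, and 70.5% of the 50-base stretches of the longest Eno1 transcript also occur in it. Eno1 therefore held 0.778% to 1.96% of the summed signal, and the split between the symbols cannot be resolved from these tables. The sum was 844 ± 14.9 RPKM (SD, n = 4), beside 749 RPKM in wt, a log2 difference of 0.17 (95% confidence interval 0.02 to 0.33, limma adjusted p = 0.136). The difference of Eno1 alone, 0.53 (SE 0.40, limma adjusted p = 0.433), rests on at most 33.3 to 84.5 reads a line.

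Eno2, the neuron-type enolase gene, was at 7.82, 9.12, 8.14 and 7.79 RPKM in the T120D lines and at 21.9 RPKM in wt. The lines of the groups did not overlap, and the log2 difference of -1.31 (SE 0.16, 95% confidence interval -1.67 to -0.96; limma adjusted p = 0.00114) was the farthest from 0 among the 29 tested members. Eno3, the muscle-type enolase gene and no member of the list, went the other way, at 12.2, 6.21, 7.83 and 10.6 RPKM against 2.96 RPKM in wt (log2 difference 1.33, limma adjusted p = 0.0215). With low genes kept in the limma fit its adjusted p was 0.123, and without an intensity trend 0.0550, so both settings ended the call. Eno2 was only 0.963 ± 0.0577% (SD, n = 4) of the summed RPKM of Eno1, Gm5506 and Eno2 in T120D and 2.84% in wt. Its difference thus concerned a small part of total enolase.

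As a group, 16 of the 17 glycolytic enzymes were tested. Of these 1 was higher and 1 lower, where 7.65% and 5.45% of all tested genes were, and 14 did not pass. The enzymes' median log2 difference was 0.00, beside -0.02 over all tested genes, with 8 values above 0 and 8 below. By line the median was 0.00, 0.05, -0.08 and 0.04 for lines 3, 6, 15 and 18. The 17 genes summed to 2003 to 2132 RPKM in the T120D lines and 1902 RPKM in wt. That sum leaves out Gm5506, which was at 825.3 to 856.0 RPKM in T120D and 743.0 in wt. Several enzymes share sequence with processed pseudogenes: of the 50-base stretches of the longest transcript, 68.0% of Pgk1, 41.5% of Pgam1, 34.4% of Pkm, 27.2% of Gapdh, 27.0% of Ldhb and 16.7% of Ldha occur in another annotated gene. Values of these genes are uncertain for this reason, by an amount that these shares do not give. Hk1, Hk2, Pfkm and Pfkp shared 0 stretches and Eno2 0.0364%.

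Of the 3 transporters at the ends of the path 2 were tested. Both had higher values in every T120D line than in wt, as did 31.1% of tested genes, without passing the test. Slc2a1, which encodes the glucose transporter GLUT1, was at 58.3, 54.6, 56.1 and 61.1 RPKM against 48.6 RPKM in wt (log2 difference 0.24, 95% confidence interval -0.01 to 0.48; limma adjusted p = 0.185). Slc16a1, the gene of the monocarboxylate transporter MCT1, was at 20.6, 23.4, 18.0 and 18.4 RPKM against 14.1 (log2 difference 0.48, 95% confidence interval 0.11 to 0.85; limma adjusted p = 0.0896). Slc16a3, whose product MCT4 exports lactate in many glycolytic cells, was at most at 0.315 RPKM in any line and was not tested. Bsg and Emb encode the chaperone proteins that bring monocarboxylate transporters to the cell surface. Bsg was at 197 ± 13.0 RPKM (SD, n = 4) against 167 RPKM (log2 difference 0.23, limma adjusted p = 0.167), while Emb was at 3.02, 2.96, 5.01 and 2.75 RPKM against 19.4 (log2 difference -2.23, limma adjusted p = 0.00119). Bsg was named after its value was seen.

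At the branch where pyruvate enters the mitochondria, 1 of the 2 tested member kinases that inhibit pyruvate dehydrogenase passed the test. Pdk1, a HIF target, was at 13.5, 17.5, 13.0 and 16.6 RPKM in the T120D lines and 27.7 RPKM in wt, without overlap. Its log2 difference was -0.84 (SE 0.18, 95% confidence interval -1.25 to -0.43; limma adjusted p = 0.0177), and the call was lost with low genes kept in the fit (adjusted p = 0.0858) or no intensity trend (adjusted p = 0.0540). Pdk3 was at 6.92, 8.86, 6.20 and 9.30 RPKM against 5.87, all above wt but not called (log2 difference 0.35, limma adjusted p = 0.355). Pdk2 was at 0.332 to 1.01 RPKM against 1.13 RPKM, at most 6.94 reads in any line, and was not tested. The ratio of Pdk1 to Pdk3 was 1.95 ± 0.132 (SD, n = 4) in T120D and 4.72 in wt, so it was lower in each T120D line.

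Further genes of pyruvate entry were called at the same branch. Of 14 listed genes 12 had values and all 12 were tested, with a median log2 difference of -0.09. In this list 1 gene was higher and 2 were lower, where 7.65% and 5.45% of all tested genes were. Pdha1, the gene of the catalytic subunit that PDK kinases phosphorylate, was at 84.2, 91.1, 94.0 and 91.9 RPKM against 46.3 RPKM in wt, 1.95-fold higher (log2 difference 0.95, limma adjusted p = 0.000689). Pdk4, a further inhibitory kinase, was at 14.7, 18.7, 10.0 and 11.4 RPKM against 34.0 (log2 difference -1.29, limma adjusted p = 0.0165), a call lost under the same settings (adjusted p = 0.116 and 0.0529). Pdp1, a phosphatase gene that acts against the kinases, was also lower, at 2.93, 3.00, 3.22 and 2.82 RPKM against 10.5 (log2 difference -1.53, limma adjusted p = 0.00143). Kinase genes and a phosphatase gene were thus lower together, while Pdhb and Dlat, other subunits of the complex, had means of 9.68 ± 1.55 and 6.75 ± 1.32 RPKM (SD, n = 4) beside wt values of 11.9 and 4.45 RPKM and were not called (limma adjusted p = 0.399 and 0.193). The 4 PDK genes summed to 29.6 to 45.6 RPKM in T120D and 68.7 RPKM in wt. Pdk1 held 40.9 ± 3.19% (SD, n = 4) of that sum in T120D and 40.3% in wt, inside the T120D range. Pdhb and Dlat were named after their values were seen.

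Pfkfb3 makes fructose 2,6-bisphosphate, the activator of phosphofructokinase. It was at 1.09, 1.03, 0.918 and 1.16 RPKM against 0.596 RPKM in wt, at most 7.80 to 14.6 reads a line. Its mean over the 5 lines was just under 1 RPKM, so it was not tested, and with low genes kept in the fit it was not called (log2 difference 0.36, limma adjusted p = 0.143).

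Of the HIF alpha factors, Hif1a was lower and Epas1, which encodes HIF2A, was near 0. Hif1a was at 18.8, 19.9, 19.8 and 20.8 RPKM in the T120D lines and 33.3 RPKM in wt, so the wt line stood well above a narrow T120D range. Its log2 difference from wt was -0.72 (SE 0.12, 95% confidence interval -1.0 to -0.44; limma adjusted p = 0.00711), and it stayed called in all 11 alternatives, with adjusted p from 0.00496 to 0.0333. Epas1 was listed at 0 in 4 lines and at 0.0709 RPKM in T120D line 18, at most 1.03 reads.

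Of 13 listed genes of the machinery that senses oxygen and partners HIF, 12 were tested. Of these 1 was higher and 0 were lower, where 7.65% and 5.45% of all tested genes were. Their median log2 difference was -0.08. All T120D lines lay below wt for 5 of the 12 and above it for 2, where 32.3% and 31.1% of tested genes do so. The higher gene, Cited2, which encodes a protein that competes with HIF for the coactivator p300, was at 46.2, 46.5, 44.8 and 51.1 RPKM against 35.2 (log2 difference 0.41, limma adjusted p = 0.0463). Cited2 is close to the threshold, and its call ended in 8 of 11 alternatives (limma adjusted p from 0.0526 to 0.139). Arnt, the HIF partner, was at 5.92, 4.51, 7.44 and 7.70 RPKM against 11.2, all below wt but not called (log2 difference -0.74, limma adjusted p = 0.0896). Vhl, which encodes the ubiquitin ligase subunit that recognises hydroxylated HIF alpha, was at 9.66 ± 0.695 RPKM (SD, n = 4) against 10.1 (log2 difference -0.06, 95% confidence interval -0.41 to 0.30). Arnt2, a related partner gene, had all T120D lines below wt as well and was not called (log2 difference -0.68, 95% confidence interval -1.34 to -0.02; limma adjusted p = 0.162). Arnt, Arnt2 and Vhl were named after their values were seen.

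**Figure D3:**
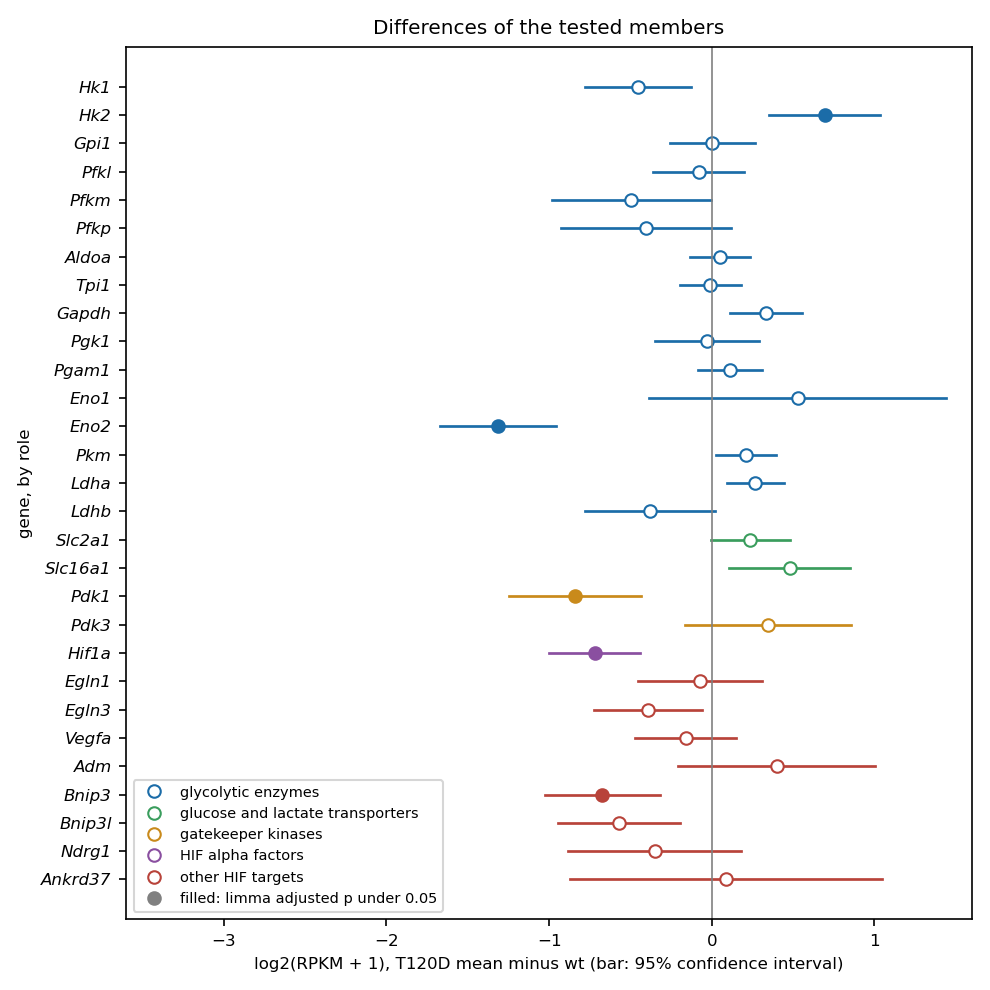
Difference of log2(RPKM + 1), T120D mean minus wt, for the 29 tested members with 95% confidence intervals, coloured by role and filled where the limma adjusted p is under 0.05. The glycolytic enzymes lie on both sides of 0 around a median of 0.00, and 6 of the 8 other HIF targets lie below 0. Of all 10052 tested genes, not drawn, 5197 lie below 0.

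Of the HIF targets outside glycolysis 1 of 8 tested genes was called, a share close to the 13.1% of all tested genes. Of the 8 differences 6 were below 0, where 5197 of all 10052 tested genes were. Bnip3 was at 32.2, 37.2, 27.4 and 33.3 RPKM in the T120D lines and 52.2 RPKM in wt, without overlap (log2 difference -0.67, SE 0.16, 95% confidence interval -1.03 to -0.32; limma adjusted p = 0.0238). Its limma adjusted p was 0.102 with low genes kept, 0.0787 with no intensity trend and 0.0502 without line 3, each of which ended the call. Bnip3l, also a mitophagy receptor gene, was at 16.5, 16.7, 14.5 and 19.7 RPKM against 25.4 (log2 difference -0.57, SE 0.17, limma adjusted p = 0.0536). It became called at a mean of at least 5 RPKM (adjusted p = 0.0417), under quantile normalization (0.0412), without line 18 (0.0340) and with lines 3, 15 and 18 averaged into 1 sample (0.0426). Both genes share sequence with pseudogenes, in 21.9% and 23.4% of their 50-base stretches.

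The hydroxylases that HIF induces as feedback were Egln1 and Egln3. Egln1 was at 15.6, 13.6, 16.7 and 12.8 RPKM with wt inside that range at 15.4. Egln3 was at 12.3, 12.6, 10.8 and 11.9 RPKM against 15.9, all below wt but not called (log2 difference -0.39, 95% confidence interval -0.73 to -0.06; limma adjusted p = 0.116). Vegfa, the vascular growth factor gene, was at 21.3, 23.4, 21.8 and 19.4 RPKM against 24.1 (log2 difference -0.16, 95% confidence interval -0.47 to 0.15; limma adjusted p = 0.482). Ndrg1, a stress-induced gene, was at 10.9, 8.18, 8.58 and 13.13 RPKM against 13.07 and overlapped with wt.

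Adm and Ankrd37 varied among the T120D lines. Adm, which encodes the vasodilator adrenomedullin, was at 20.6, 19.3 and 23.4 RPKM in lines 3, 15 and 18 but at 12.6 RPKM in line 6, beside 13.8 RPKM in wt. Over all lines its log2 difference of 0.40 was not called (limma adjusted p = 0.370), and without line 6 it was 0.57 and called (adjusted p = 0.0389). Ankrd37, a short ankyrin-repeat gene, was at 4.81, 1.23, 2.49 and 2.94 RPKM against 2.43, which corresponds to at most 3.07 to 11.3 reads a line, and the T120D lines lay on both sides of wt (log2 difference 0.09, 95% confidence interval -0.87 to 1.05; limma adjusted p = 0.916). Car9, the cell-surface carbonic anhydrase often used as a hypoxia marker, was listed at 0 in T120D lines 3, 6 and 18, at 0.192 RPKM in line 15 and at 0.374 RPKM in wt, at most 2.06 reads.

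Set beside each other, the tested glycolytic enzymes had a median log2 difference of 0.00 and the tested other HIF targets one of -0.26, with -0.02 over all tested genes. By line the median of the other HIF targets was -0.20, -0.40, -0.33 and -0.27 for lines 3, 6, 15 and 18. All T120D lines lay below wt for 4 of the 8 HIF targets and above it for 0, against 6 and 7 of the 16 enzymes, where 32.3% and 31.1% of tested genes do so. The medians describe these lists, and the difference between the lists was not tested. Over the alternatives the median of the HIF targets ran from -0.35 to -0.23. The former came at a mean of at least 5 RPKM, over 7 genes, and with low genes kept, over 9 genes. The latter came without line 15.

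**Figure D4:**
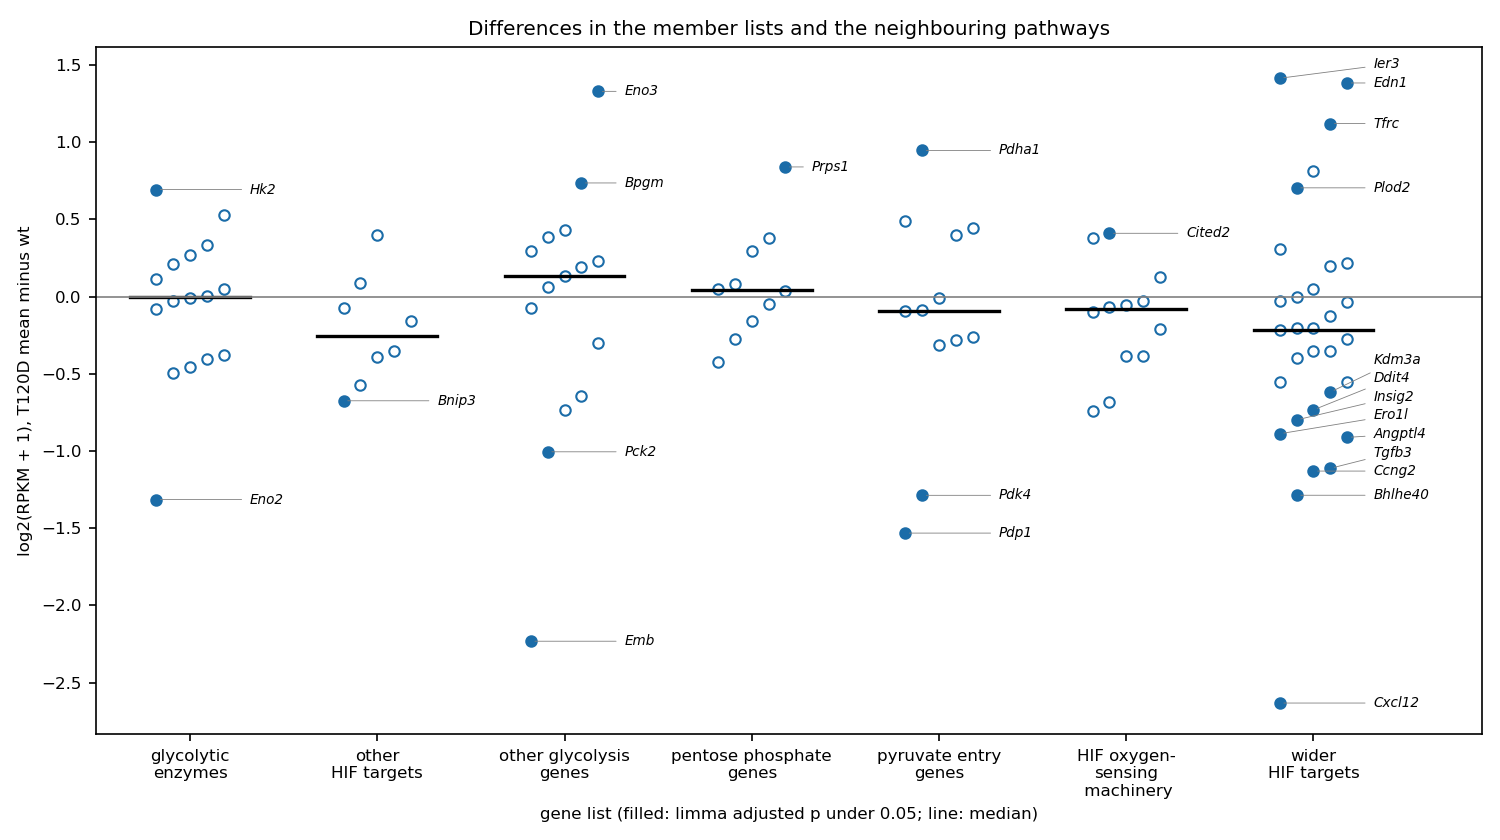
Difference of log2(RPKM + 1), T120D mean minus wt, for tested genes of the 2 main member lists and of 5 lists of neighbouring pathways; filled points are genes with a limma adjusted p under 0.05, and the line is the median of each list. Wider HIF targets spread from -2.63 (Cxcl12) to 1.41 (Ier3), while pentose phosphate genes stay between -0.43 and 0.84.

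A wider list of 44 HIF targets moved in both directions. Of its 31 tested genes 4 were higher and 9 lower, with a median log2 difference of -0.22. Among the higher genes, Ier3, an early response gene, was at 23.3 ± 3.17 RPKM (SD, n = 4) against 8.07 RPKM. Edn1, which encodes endothelin, and Tfrc, the transferrin receptor gene, had log2 differences of 1.38 and 1.12, the former from 0.469 RPKM in wt. Plod2, whose product hydroxylates lysines of collagen, was at 9.28 ± 0.799 RPKM against 5.29 (log2 difference 0.70, limma adjusted p = 0.0261), which was not called with low genes kept (0.0535) or without line 3 (0.0541). Among the lower genes, Cxcl12, a chemokine gene, was at 6.21 ± 1.73 RPKM against 42.8, and Bhlhe40, a repressor gene of the circadian and hypoxic response, at 6.08 ± 1.05 RPKM against 16.1. Ccng2, a cyclin gene linked to cell cycle arrest, and Tgfb3, a growth factor gene, had log2 differences of -1.13 and -1.11. In all 13 of the 31 were called, where 13.1% of all tested genes were, 7.65% higher and 5.45% lower. The list was chosen with earlier results of these data known, so its share of calls is a description only. Of the 31 differences 22 were below 0 and 9 above, where 5197 and 4855 of all 10052 tested genes were. The T120D lines all lay below wt for 18 and above it for 8, where 32.3% and 31.1% of tested genes do so. Many of these genes respond to other signals as well.

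Other branches of sugar metabolism held called genes in both directions, 4 of 15 tested genes in one list and 1 of 10 in the other, where 13.1% of all tested genes were called. Of 35 further glycolysis genes, 24 had values and 15 were tested, 2 higher and 2 lower, with a median log2 difference of 0.14. Beside Eno3 and Emb these were Bpgm, the bisphosphoglycerate mutase gene, at 6.00 ± 0.582 RPKM (SD, n = 4) against 3.19 RPKM, and Pck2, the mitochondrial PEP carboxykinase gene, at 16.95 ± 2.70 RPKM against 34.7. With low genes kept, limma called neither Bpgm nor Pck2 (adjusted p = 0.0679 and 0.0703), and Bpgm was not called without lines 6, 15 or 18 (0.0546 to 0.0709) or with lines 3, 15 and 18 averaged (0.0513). All 10 pentose phosphate genes were tested, with 1 higher, 0 lower and a median of 0.04. The higher gene was Prps1, which makes the ribose donor of nucleotide synthesis, at 19.8, 17.9, 14.3 and 16.7 RPKM against 9.10 (log2 difference 0.84, limma adjusted p = 0.0167), which was not called with low genes kept (0.0781) or with no intensity trend (0.0501).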

How the data were processed

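Messenger RNA libraries (TruSeq Stranded mRNA, MiSeq, per the labels) came from 4 T120D lines and 1 wt line. The authors deposited RPKM values, 1 table a line. Per the submitters' processing notes, Partek and the build mm9 were used; for the aligner, annotation, strand setting and reads with several matches, the state is: not given in the sources used here. Members and lists were chosen with earlier results of these data known. All 35 members were named, and of each neighbouring list at most 4 called genes in each direction, with exceptions marked in the text. One gene of the wider HIF list is not reported here and is left out of that list's counts. Values were analysed as log2(RPKM + 1), a scale that understates changes of low genes, for genes whose mean reached 1 RPKM. The model was limma 3.58.1 in R 4.3.3 (intensity trend, two-sided, 3 residual and 5.99 prior degrees of freedom), tested on simulated data. P-values measure only the spread between T120D lines, which may be technical. The alternatives were a pseudocount of 0.1 RPKM, no filter, a mean of at least 5 RPKM, no trend, median scaling and quantile normalization. Further alternatives left out each T120D line in turn or averaged lines 3, 15 and 18. Summing the copies of Eno1 and Aldoa was added after seeing the data. Depth was estimated from low values of genes with 1 transcript in GENCODE M21 (GRCm38), of which 46.7% to 52.4% under 20 reads came within 0.05 of whole reads, where chance gives 10%. The scan covered 2000000 to 4000000 reads, since steps alone do not tell a depth from its multiples. Reads per gene use the longest transcript, as upper limits.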

Additional observations from a re-analysis of the deposited data

Results flagged for a closer look

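The share of Pfkp in the summed phosphofructokinase RPKM in T120D lines 3, 6 and 18 was 10.0%, 9.82% and 9.73%. In line 15 it was 7.84%, and in wt 11.5%. Line 15 stood apart from the other T120D lines: its gap to the nearest of them was 0.858 of the group's range, above Dixon's 95% critical value for 4 samples. At 2.09 RPKM, Pfkp in line 15 rests on at most 48.3 reads. Of the 29 members and 18 isozyme shares examined in this way, this was the 1 value beyond the critical value, where chance gives about 1 in 20.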

How the results depend on the processing

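Over the 10052 tested genes, 769 were called higher and 548 lower. Without the filter on low values 434 were higher, and limma without an intensity trend called 455 higher and 361 lower. Leaving out 1 T120D line gave 559 to 799 higher and 400 to 596 lower. Of all calls 58.4% were higher, and 45.8% without the filter. Among the glycolytic enzymes 1 was higher, against 2 with a pseudocount of 0.1 RPKM, under median scaling and under quantile normalization, 3 at a mean of at least 5 RPKM, and 1 to 2 with a line left out; 1 was lower, against 2 without the filter. Among the other HIF targets 1 was lower, against 0 without the filter or the trend, and 2 with a mean minimum of 5 RPKM, under quantile normalization and with lines 3, 15 and 18 averaged. With a line left out, 0 to 1 were higher and 0 to 2 lower. Of transporters, control kinases and HIF factors 2 were lower, against 1 without the filter and 1 without the trend. Hk2, Eno2 and Hif1a stayed called in all 11 alternatives. Of 319 alternative values of single members, 290 kept direction and side of the threshold, 13 became called, 5 lost the call and 11 changed sign, all of genes near 0: Gpi1 (-0.070 under quantile normalization, -0.0178 to 0.0485 with a line left out), Tpi1 (0.00687 under median scaling, 0.00686 with lines averaged, -0.0244 to 0.0169 with a line left out), Pgk1 (0.0378 with lines averaged, -0.0998 to 0.0435 with a line left out) and Ankrd37 (-0.15 with lines averaged, -0.13 to 0.33 with a line left out). The 6 members with a mean under 1 RPKM, Car9, Slc16a3, Epas1, Aldoc, Pdk2 and Pfkfb3, entered only the fit without the filter. No paired analysis was possible because the groups share no replicate numbers.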
